A study of Mus musculus with 16 samples.

Results

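The peaks of 2 histone marks, H3K27ac and H3K4me3, were set against each other in mouse late 2-cell embryos that had received Hdac1 mutant mRNA as zygotes. The deposited mutant lists were compared on chromosomes 1 to 19, where they held 114737 H3K27ac peaks and 83290 H3K4me3 peaks, 198027 of the 372612 peaks in the 4 lists of the series. Each base, peak and gene was placed in 1 of 4 states: both marks, H3K27ac alone, H3K4me3 alone or neither.

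The embryos were collected 36 h after fertilization and profiled by native chromatin immunoprecipitation from very small numbers of cells, with micrococcal nuclease digestion and no crosslinking step named in the labels. The mutant group was made by injecting zygotes with Hdac1 mutant mRNA, and the control group by injecting zygotes with H2O; the labels name no other treatment, and they do not say which change the mRNA carries, and they describe injection of mRNA and no deletion of the gene itself. The series has 16 libraries in 8 groups of 2, of which 4 are the mutant immunoprecipitation libraries used here, each pair represented by 1 peak list. Strain, embryo number per library and whether embryos were pooled are not given in the sources used here.

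H3K27ac is acetylation of a histone tail at promoters and enhancers in use. It is added by the acetyltransferases p300 and CBP and removed by histone deacetylases such as HDAC1, HDAC2 and HDAC3. H3K4me3 is trimethylation placed by SET1 and MLL complexes, mostly at the start sites of genes whose promoters are rich in CpG, and active promoters usually carry it together with H3K27ac. In mouse oocytes H3K4me3 also covers wide domains away from promoters, which shrink around the late 2-cell stage as the embryo's own genome is switched on.

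A peak list says where a mark was called, not how much of it there was. Each mark had 1 list, so replicates could not be compared, no test was possible, and the Wilson 95% intervals given cover counting error over peaks or genes alone. How deeply the libraries were sequenced is unknown. The limits used in calling also differed: the narrowest mutant peak was 149 bp for H3K27ac and 182 bp for H3K4me3, and the smallest gap between neighbours was 602 bp and 734 bp. Differences between mutant and water lists therefore cannot be told apart from differences in depth, calling or batch.

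The sequence just before the start site shows what kind of promoter fell into each state. The 150 bases before the start are printed for 8 genes, 5′ to 3′ on the strand of the gene, with every CpG in capitals. They come from RefSeq promoters of GRCm38.p6, from genes with 1 start in that table and no coding gene over the printed bases. Setd1a, Klf17, Polr1a and Obox3 were the first of their states to meet these conditions when the genes to be named were read in their stated order and then the gene lists, and the other 4 are known 2-cell, lineage or liver genes.
Setd1a, chr7:127777239-127777388, plus strand: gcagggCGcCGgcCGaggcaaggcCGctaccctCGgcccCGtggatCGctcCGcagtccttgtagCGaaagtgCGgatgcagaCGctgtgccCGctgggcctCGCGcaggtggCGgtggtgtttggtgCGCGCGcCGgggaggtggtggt
Sox2, chr3:34649845-34649994, plus strand: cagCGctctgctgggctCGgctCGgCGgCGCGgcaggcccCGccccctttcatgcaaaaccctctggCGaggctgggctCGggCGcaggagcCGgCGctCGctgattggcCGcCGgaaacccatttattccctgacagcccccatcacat
Zscan4c, chr7:11005595-11005744, plus strand: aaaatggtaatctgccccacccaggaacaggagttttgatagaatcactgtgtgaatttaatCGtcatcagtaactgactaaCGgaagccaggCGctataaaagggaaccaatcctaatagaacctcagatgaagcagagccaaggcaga
Zfp352, chr4:90218670-90218819, plus strand: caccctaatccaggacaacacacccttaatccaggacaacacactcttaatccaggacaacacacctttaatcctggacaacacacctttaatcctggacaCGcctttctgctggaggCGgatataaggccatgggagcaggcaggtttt
Klf17, chr4:117765667-117765816, minus strand: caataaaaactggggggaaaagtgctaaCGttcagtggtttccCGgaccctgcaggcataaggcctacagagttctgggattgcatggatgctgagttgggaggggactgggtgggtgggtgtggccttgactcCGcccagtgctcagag
Polr1a, chr6:71908903-71909052, plus strand: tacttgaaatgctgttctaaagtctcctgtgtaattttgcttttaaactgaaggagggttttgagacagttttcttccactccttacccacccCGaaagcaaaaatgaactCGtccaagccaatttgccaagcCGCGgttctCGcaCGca
Obox3, chr7:15639778-15639927, minus strand: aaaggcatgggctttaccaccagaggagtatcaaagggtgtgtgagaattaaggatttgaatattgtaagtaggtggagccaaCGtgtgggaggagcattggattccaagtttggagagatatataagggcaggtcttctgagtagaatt
Alb, chr5:90460720-90460869, plus strand: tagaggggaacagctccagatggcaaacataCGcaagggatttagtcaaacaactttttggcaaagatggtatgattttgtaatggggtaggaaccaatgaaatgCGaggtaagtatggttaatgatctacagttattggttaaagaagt

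Setd1a, which encodes an H3K4 methyltransferase, and Sox2, a pluripotency factor, were CpG-rich genes with both marks, with 35 and 27 CpG in the 300 bases around the start. Zscan4c and Zfp352, which are switched on in 2-cell embryos, also had both marks with 4 and 2 CpG. Klf17, another 2-cell gene with 6 CpG, had H3K4me3 alone. Polr1a, the large subunit of RNA polymerase I, had 15 CpG and H3K27ac alone. Obox3, a homeobox gene of the early embryo, and Alb, the serum albumin gene of liver, had 2 and 3 CpG and neither mark. Reads of Zscan4c and Obox3 can be shared with near-identical family members, so their states are uncertain.

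Counted in bases, most of the marked sequence carried a single mark. The H3K27ac list covered 237.2 Mb and the H3K4me3 list 272.9 Mb, of 2461 Mb spanned by the 19 autosomes. Both marks lay on 99.2 Mb, H3K27ac alone on 137.9 Mb, H3K4me3 alone on 173.7 Mb and neither on 2050 Mb. H3K4me3 covered 41.8% of the H3K27ac bases against 11.1% of the whole span. H3K27ac covered 36.4% of the H3K4me3 bases against 9.64% of the span. The shared length was 3.77 times the product of the covered shares over the span. Both marks lay on 130.9 Mb in the water lists, and the shared part was 36.6% of all marked bases against 24.1% in the mutant lists.

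Counted in peaks, 33.9% (33.6% to 34.1%) of H3K27ac peaks overlapped an H3K4me3 peak by at least 1 bp, and 39.4% (39.0% to 39.7%) of H3K4me3 peaks overlapped an H3K27ac peak. In the water lists these shares were 40.7% and 40.8%. The shares depended on what counts as overlap: with at least 50% of the peak covered they were 25.5% and 24.2% in the mutant lists, and with 50% of both peaks 7.92% and 10.9%. The mutant H3K27ac list had 114737 autosomal peaks against 73320 in the water list over a similar length, 237.2 Mb against 241.8 Mb. Its median peak width was 1088 bp against 1205 bp.

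Overlap followed the width of the peak. Of H3K27ac peaks up to 500 bp wide, 11.7% met H3K4me3, and of those over 10 kb 93.7% did. For H3K4me3 the shares ran from 13.5% in the narrowest class to 89.6% in the widest. By construction a wider peak has more bases with which to meet another. H3K27ac peaks with a partner had a median width of 2576 bp and those without one 738 bp. For H3K4me3 these medians were 3801 and 1077 bp.

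**Figure D1:**
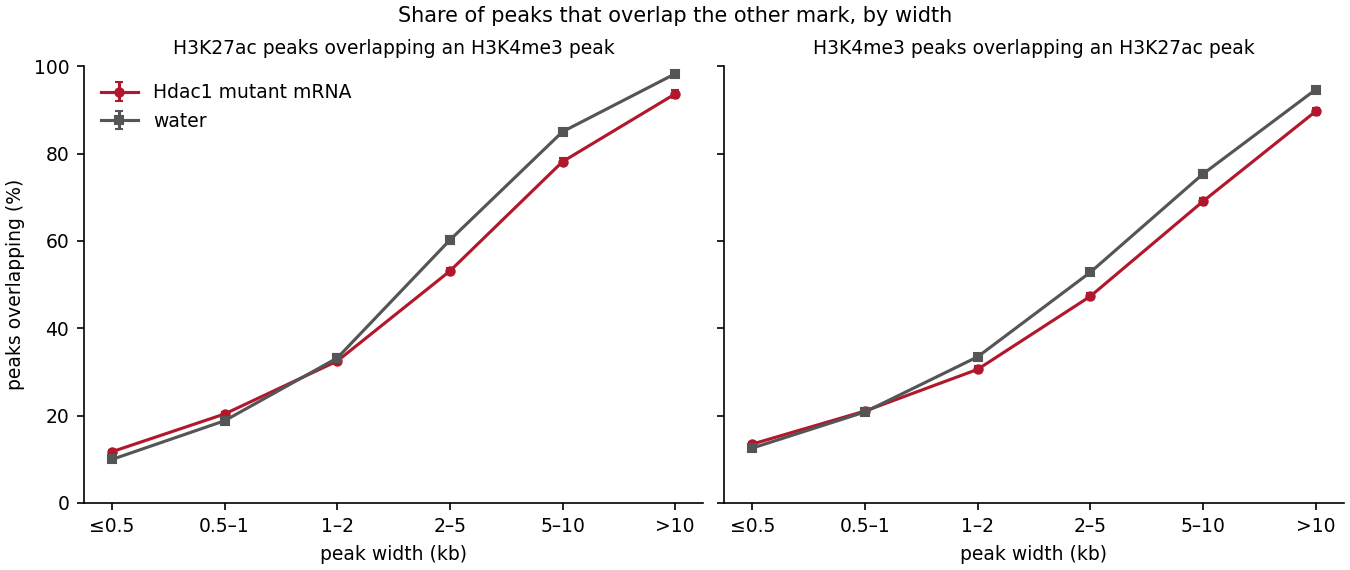
Share of peaks (%) that overlap the other mark by at least 1 bp, against peak width in kb, for H3K27ac peaks (left) and H3K4me3 peaks (right); red circles are the mutant lists, grey squares the water lists, and bars are Wilson 95% intervals. The mutant share rises from 11.7% to 93.7% for H3K27ac and from 13.5% to 89.6% for H3K4me3, and lies under the water share in the 4 widest classes of both panels.

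The marks met in different proportions. An overlapping mutant H3K27ac peak had a median of 88.3% of its length under H3K4me3, whereas an overlapping H3K4me3 peak had 64.7% under H3K27ac. The water lists had the opposite order, at 75.7% and 96.0%. H3K4me3 peaks over 10 kb held 3 or more H3K27ac peaks in 33.2% of overlapping cases, up to 11 in 1 peak, against 11.6% in the water lists. The widest H3K4me3 peak, 72796 bp on chromosome 11 over Efcab3, Mettl2 and Tlk2, held 5 H3K27ac peaks. A 61057 bp H3K4me3 peak over Rhbdl3 on the same chromosome held 10.

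Joining overlapping peaks gave 153841 regions, of which 27467 held both marks. Of those 27467, 18284 were 1 peak of each mark, 5101 were 1 H3K4me3 peak over several H3K27ac peaks, 1843 were 1 H3K27ac peak over several H3K4me3 peaks, and 2239 had several of each. In the water lists 1934 regions had 1 H3K4me3 peak over several H3K27ac peaks and 4113 had the opposite arrangement. The mutant lists thus held more H3K4me3 domains with broken H3K27ac inside, and the water lists more H3K27ac domains with broken H3K4me3 inside. The smallest gap at which neighbours stayed separate was shorter for mutant H3K27ac than for mutant H3K4me3, and its part in this pattern was not tested.

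Lone peaks usually lay some kilobases from the other mark. For H3K27ac peaks without H3K4me3, the median distance to the nearest H3K4me3 peak was 8082 bp, and 9.14% lay within 1 kb. For H3K4me3 peaks without H3K27ac, the median distance was 6069 bp, and 11.2% lay within 1 kb. Of the lone H3K27ac peaks, 3.31% were in a start window (2 kb on each side of a start site, or of both gene ends where no start is given) and 50.3% lay between genes. Of the lone H3K4me3 peaks, 11.7% were in a start window and 51.0% between genes. Of all sequence 58.5% lies between genes.

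Where a peak lay in relation to genes went with its state. Start windows make up 3.96% of the span. They held 18.6% of the bases with both marks, 17.1% of those with H3K4me3 alone and 3.83% of those with H3K27ac alone, the last close to the share of all sequence. Gene bodies outside these windows held 52.7% of the bases with H3K27ac alone, against 37.5% of all sequence. Of H3K27ac peaks in start windows 78.8% met H3K4me3, against 28.3% in gene bodies and 29.1% between genes. Of H3K4me3 peaks these shares were 60.1%, 37.2% and 33.1%, but H3K4me3 peaks in start windows were also wider. At similar width the H3K4me3 contrast was mostly small. Over 2 and up to 5 kb wide, the shares were 45.2%, 50.7% and 45.7% in the same order. Over 5 and up to 10 kb they were 68.6%, 68.9% and 69.6%, and over 10 kb 90.8%, 88.0% and 87.6%. H3K27ac peaks over 5 and up to 10 kb wide kept a contrast, at 93.4%, 68.7% and 77.3%.

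Over the 13797 coding genes with 1 start site, H3K4me3 rose sharply at the start and H3K27ac only a little. At the start base 62.5% of genes were under an H3K4me3 peak, 28.5% under an H3K27ac peak and 24.8% under both. At 10 kb upstream these shares were 26.8%, 22.1% and 12.4%. H3K27ac was highest 250 bases into the gene, at 29.5%. At 50 kb downstream H3K27ac was still at 19.2% and H3K4me3 at 22.1%. In the water lists the shares at the start base were 65.7%, 35.4% and 33.7%.

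**Figure D2:**
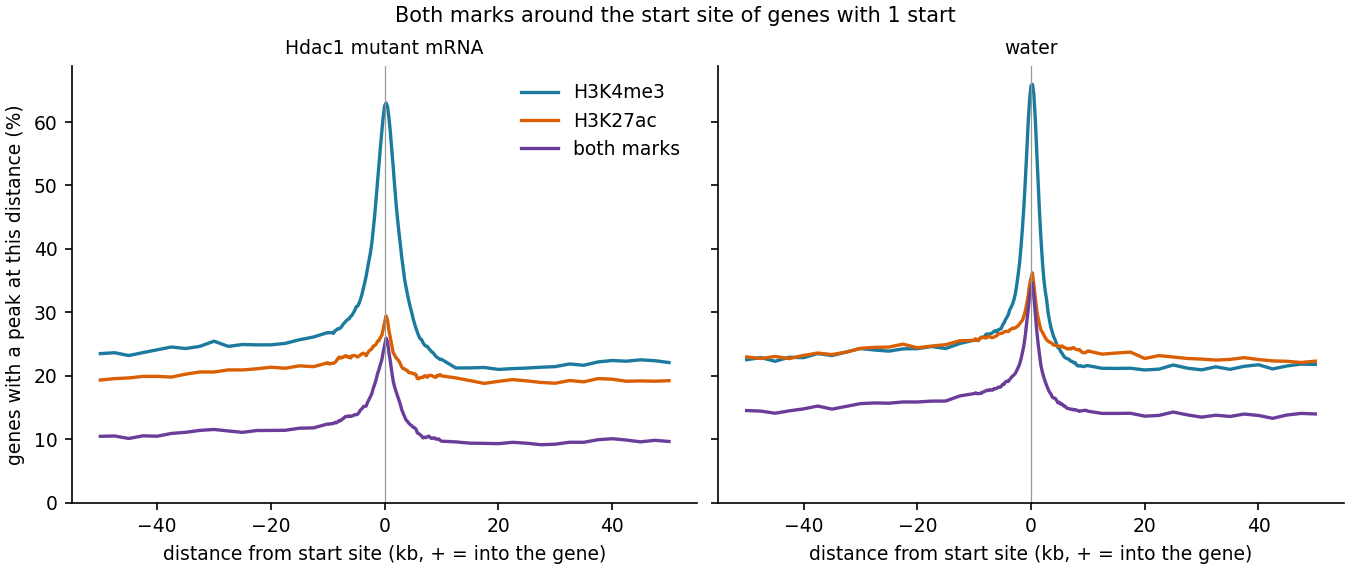
Share of genes (%) with a peak at each distance from the start site in kb, for 13797 coding genes with 1 start, in the mutant lists (left) and the water lists (right); blue is H3K4me3, orange H3K27ac and purple both at the same base. In the mutant lists H3K4me3 peaks at 63.0% and H3K27ac at 29.5%, both 250 bases into the gene.

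Across 20560 coding genes, 9058 (44.1%) had both marks, 1191 (5.79%) had H3K27ac alone, 5778 (28.1%) had H3K4me3 alone and 4533 (22.0%) had neither. A gene counted as marked when a peak touched a start window. H3K27ac at a start was seldom without H3K4me3, which was the commoner mark: 88.4% of genes with H3K27ac also had H3K4me3, against 72.2% of all coding genes. Of genes with H3K4me3, 61.1% had H3K27ac, against 49.8% of all coding genes. With the water lists, 9534 genes had both marks, 653 H3K27ac alone, 5859 H3K4me3 alone and 4514 neither. The order of the conditions for both marks depended on the window: within 1 kb it was 7801 mutant against 8692 water genes, and within 5 kb 11906 against 11517. The count with H3K27ac alone was higher in the mutant lists in each of the 7 ways of counting, from 893 against 518 with the wider 50% of each list to 1385 against 867 within 5 kb.

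Of the 9058 genes with both marks, 6531 (72.1%) also had both in the water lists and 2194 (24.2%) had H3K4me3 alone there. From the water side, 3003 of 9534 genes with both marks (31.5%) were in another state in the mutant lists, and 2527 of the 11026 without both (22.9%) had both there. Counting all 4 states, 7831 genes (38.1%) were in another state than in water. Of the 5778 genes with H3K4me3 alone, 2438 (42.2%) had both in the water lists. Genes with H3K27ac alone came from mixed states, with 455 (38.2%) unmarked in the water lists, 318 (26.7%) with both, 279 (23.4%) with H3K4me3 alone and 139 (11.7%) with H3K27ac alone.

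The states differed in gene size and neighbourhood. The median length was 21.3 kb for genes with both marks, 22.3 kb with H3K4me3 alone, 14.6 kb with H3K27ac alone and 6.83 kb with neither. Of 4512 genes up to 5 kb long, 44.6% had neither mark. Genes with both marks had wide peaks at the start, with a median widest H3K4me3 peak of 7910 bp, against 5008 bp where H3K4me3 stood alone. Genes with H3K27ac alone had a median widest H3K27ac peak of 1385 bp, against 4513 bp where both marks were present. At 1441 genes with a divergent partner starting within 1 kb, 63.3% had both marks and 2.29% had neither.

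Noncoding genes showed the same 4 states in other proportions. Of 9291 lncRNA genes with a start site, 2133 (23.0%) had both marks and 3982 (42.9%) neither. Of the 4252 lncRNA genes over 10 kb from a coding gene, 15.5% had both marks and 12.7% H3K27ac alone, against 10.5% and 7.97% in the water lists.

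Gene groups of known function were then read from fixed lists, each compared with the coding background of 44.1% with both marks. The 2-cell genes, which are switched on with the embryo's genome, had both marks at 24 of 29 (82.8%), against 25 of 29 in the water lists. Some of the 29 were judged by gene ends. With only genes that have a start site it was 14 of 19 (73.7%), against 41.6% of all such coding genes. Zfp352 had a 3634 bp H3K27ac peak and a 6680 bp H3K4me3 peak at its start, Nr5a2 one of 7094 bp and one of 12039 bp, and Zscan4c short ones of 263 and 983 bp. Nr5a2 encodes a nuclear receptor of the early embryo. Klf17, Sp1 and Zscan4f had H3K4me3 alone, and Obox3 and Tdpoz1 neither. Both marks stood at Klf17, Sp1, Obox3 and Tdpoz1 in the water lists. At Obox3 the nearest mutant H3K27ac peak lay 2969 bp from the start and the nearest H3K4me3 peak 29007 bp away.

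Genes of basic cell function mostly had both marks. Ribosomal protein genes had both marks at 42 of 51, and the other 9, among them Rpl18, Rpl28, Rpl34 and Rpl37, had H3K4me3 alone; in the water lists it was 51 of 51. Ribosome biogenesis genes had both at 25 of 40 against 38 in water. Npm1, a nucleolar chaperone, Imp3 and Imp4 were among the 13 with H3K4me3 alone, and Ddx18 had neither mark, with H3K4me3 17393 bp from its start. Proteasome genes had both at 22 of 31 against 29, splicing genes at 26 of 35 against 33, and housekeeping genes at 21 of 31 against 29. Gapdh had a 4288 bp H3K4me3 peak at its start, and its nearest H3K27ac peak was 16200 bp away. Of the members with both marks in water, those not so in the mutant lists were 17.6% of ribosomal protein, 34.2% of ribosome biogenesis, 27.6% of proteasome, 27.3% of splicing and 31.0% of housekeeping genes. These shares were near or below the 31.5% of all coding genes. Nearly all members had both marks in water, so a change of state could do little but lower these counts. The H3K4me3 counts were close: 51 of 51 in both conditions for ribosomal proteins, 38 against 40 for ribosome biogenesis, 30 against 31 for the proteasome, 35 in both for splicing and 31 against 30 for housekeeping genes.

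Lists in which many members lacked both marks in water were read against the 22.9% of such coding genes that had both in the mutant lists. Developmental transcription factors, which pattern later embryos, had both marks at 19 of 48 and H3K4me3 alone at 27, against 10 and 38 in the water lists. The members differed: 17 had both marks in the mutant lists alone, 8 in the water lists alone, and 2, Pax3 and Isl1, in both conditions. The 17 were 44.7% of the 38 without both in water, and the 8 were 80.0% of the 10 with both, against 22.9% and 31.5% of all coding genes. The 38 all had H3K4me3 alone in water, so the 22.9%, which includes unmarked genes, is a low background for them. Of the 5859 coding genes with H3K4me3 alone in water, 2194 had both in the mutant lists. Pax6, Foxa2, Foxd3, Dlx5 and Cdx1 were among the 17, with H3K4me3 alone in the water lists. The 8, with H3K4me3 alone in the mutant lists, were Hand1, Lhx1, Hoxb1, Sox9, Neurog1, Otx2, Nkx2-5 and Emx2, named after the values were seen. At Foxd3 the H3K27ac peak was 2640 bp wide and the H3K4me3 peak 22564 bp, but at Foxa2 it was 255 bp. Within 5 kb the counts were 24 against 22, so the gap of 9 genes narrowed to 2; within 1 kb they were 12 against 7, and with the wider 50% of each list 9 against 2. Differentiated tissue genes had both marks at 8 of 36 and neither at 16, against 2 and 18 in the water lists, and within 5 kb both conditions had 9 with both. The 7 that had both marks in the mutant lists alone were 20.6% of the 34 without both in water, close to the 22.9% of all coding genes. Ckm, the creatine kinase of muscle, was one of the 8. Cd3e, of the T cell receptor complex, had H3K27ac alone. Oocyte and maternal genes had both marks at 17 of 30 against 13 in the water lists, with 9 in that state in the mutant lists alone and 5 in the water lists alone, or 52.9% of the 17 without both in water and 38.5% of the 13 with both. Gdf9 and Zp3, which encode an oocyte growth factor and an egg coat protein, had both, and Nlrp5, a maternal-effect gene, had both here and neither in water.

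All 27 pluripotency and lineage genes had H3K4me3, and 17 of them also had H3K27ac, against 16 of 27 in the water lists. Sox2, Cdx2 and Nanog had both marks, and Sox2 had a 23728 bp H3K4me3 peak over its start and H3K27ac peaks of up to 1479 bp. Cdx2, the trophectoderm factor, had a 3364 bp H3K27ac peak and a 23204 bp H3K4me3 peak. Pou5f1, which encodes OCT4, had H3K4me3 alone, as did Klf4, Fgf4, Elf5 and Eomes. Between conditions, 5 genes, Sox2 and Cdx2 among them, had both marks in the mutant lists and H3K4me3 alone in water, and 4, Pou5f1, Klf4, Fgf4 and Elf5, the opposite. These 9 of 27 (33.3%) in another state are near the 38.1% of all coding genes.

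The enzymes that write and erase these marks were mostly marked themselves. Acetylation enzymes and readers had both marks at 29 of 37, against 28 in water. Hdac1 had H3K27ac peaks of up to 8308 bp and an H3K4me3 peak of 42350 bp, and Hdac2 and Ep300 also had both. Peaks at the Hdac1 locus do not show the injected mRNA, so they do not check the labels. Hdac3, Hdac5, Hdac11 and Chd4 had H3K4me3 alone, and Hdac7 neither. Genes for H3K4 methylation and demethylation had both marks at 17 of 22, against 19 in water, and H3K4me3 alone at 5, which were Kdm1a, Kdm1b, Kmt2a, Men1 and Wdr5. Setd1a had an H3K27ac peak of 22013 bp, wider than its H3K4me3 peak of 5423 bp. At Kdm5b, a demethylase, the order was opposite, with 13090 bp of H3K27ac and 33245 bp of H3K4me3.

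Markers of follicle cells that can stick to embryos were read in the same way. Of 8 cumulus and granulosa genes 4 had both marks and 4 H3K4me3 alone, against 1 and 5 in the water lists with 2 unmarked. Amh, Inha, Has2 and Cyp19a1 were the 4 with both. Within 1 kb, and also with the wider 50% of each list, 2 had both against 1 in water. A peak list gives no level, and a part of such cells in the results was not tested.

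Among large families, the receptors of smell and pheromones were mostly unmarked. Of 1103 olfactory receptor genes 946 (85.8%) had neither mark and 24 both. Of 349 vomeronasal receptor genes 317 (90.8%) had neither. H3K27ac alone stood at 70 of the olfactory (6.35%) and 22 of the vomeronasal genes (6.30%), near the 5.79% of all coding genes, while both marks were far rarer than the 44.1% of all coding genes. Of 388 Zfp zinc finger genes 199 (51.3%) had both marks, and of 53 keratin genes 11 (20.8%). The longest run of neighbouring genes with neither mark was 86 genes on chromosome 7, from Vmn1r91 to Nlrp4e, 70 of them vomeronasal receptors. The longest run with both marks was 35 genes on chromosome 2, from Ptprj to Dgkz. Copies in such clusters can share reads, so single members are uncertain.

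**Figure D3:**
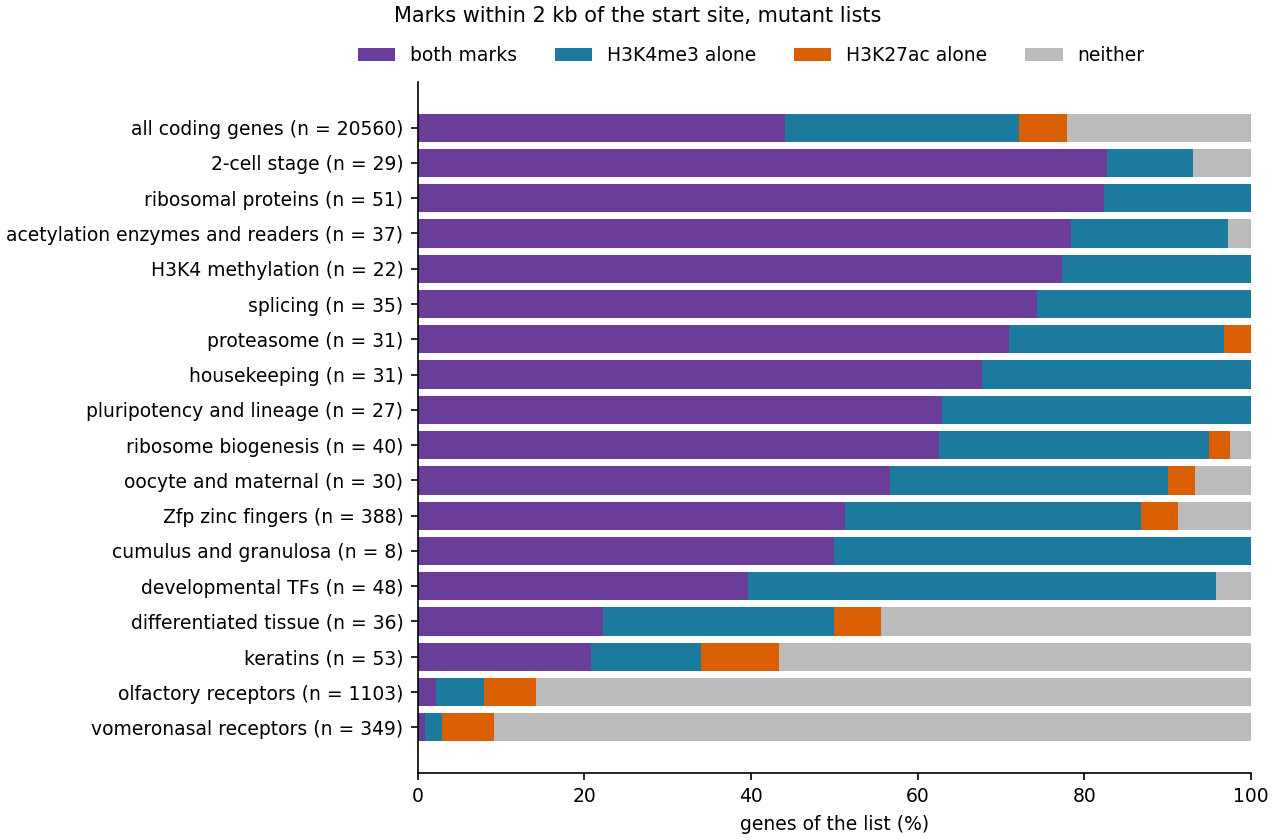
State of the genes of each list (% of the list, number of genes beside each name) in the mutant lists, within 2 kb of a start site or, where no start is given, of either gene end; purple is both marks, blue H3K4me3 alone, orange H3K27ac alone and grey neither. The bars run from 82.8% with both marks for 2-cell genes to 0.860% for vomeronasal receptors, around 44.1% of all coding genes.

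CpG number separated H3K4me3 from no mark, but hardly separated both marks from H3K4me3 alone. Over 20085 start sites of coding genes, the median number of CpG in 300 bases was 20 for both marks, 19 for H3K4me3 alone, 4 for H3K27ac alone and 3 for neither. The share with H3K4me3 rose from 28.7% of starts with 0 to 4 CpG to 96.0% of those with 30 or more. Among starts with H3K4me3, the share that also had H3K27ac stayed between 51.8% and 59.2% over the 5 CpG classes. Starts with H3K27ac alone fell from 11.3% with 0 to 4 CpG to 1.36% with 30 or more. The 2-cell genes had a median of 3 CpG over 22 starts, in the range of differentiated tissue genes with 4 and oocyte genes with 5. Of starts with under 10 CpG, both marks were at 12 of 18 (66.7%) in the 2-cell list, 4 of 15 in the oocyte list, 2 of 27 in the tissue list and 3 of 6 in the cumulus and granulosa list, 56 of 137 (40.9%) among Zfp genes, 3 of 8 in the pluripotency list, 3 of 7 in the acetylation list, 2 of 7 in the developmental list and 6 of 33 among keratins, against 20.9% of all 8451 such starts. The olfactory and vomeronasal receptors are in that background, with 17 of 940 (1.81%) and 2 of 320 (0.625%). In the lists of ribosomal protein and ribosome biogenesis genes it was 2 of 2 and 3 of 4. These shares were not tested against each other.

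**Figure D4:**
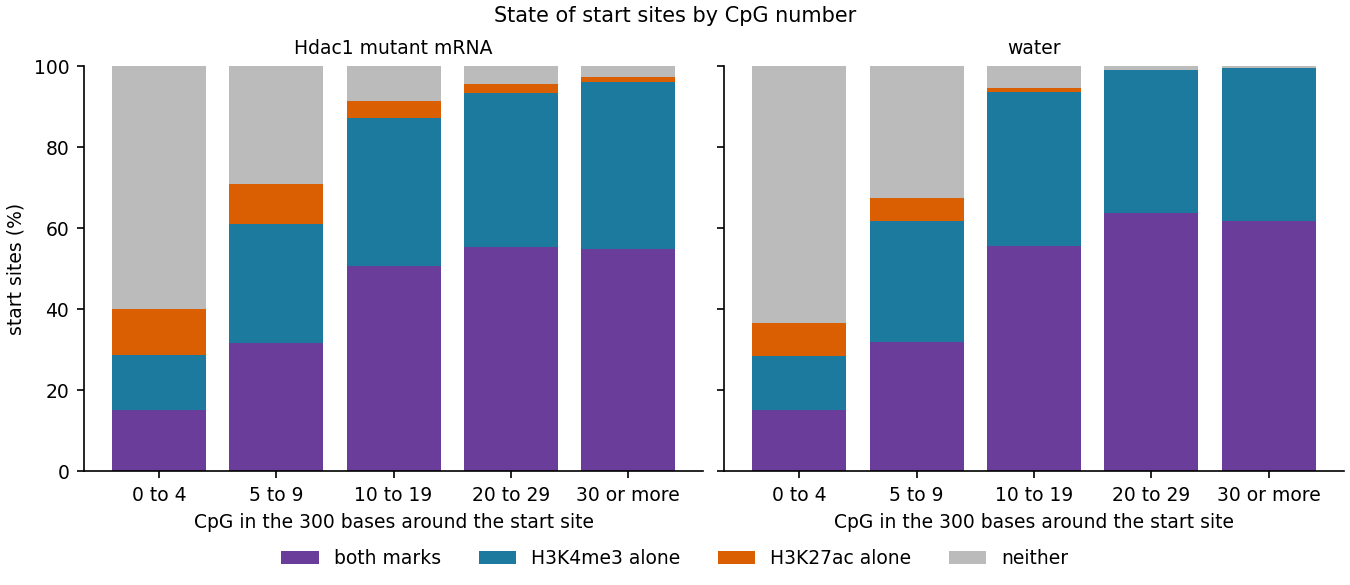
State of coding start sites (%) by the number of CpG in the 300 bases around the start, in the mutant lists (left) and the water lists (right); colours are purple for both marks, blue for H3K4me3 alone, orange for H3K27ac alone and grey for neither. In the class with 30 or more CpG, 96.0% have H3K4me3 in the mutant lists and 99.5% in the water lists.

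Some CpG-rich starts had no H3K4me3 peak. Of 7451 starts with 20 or more CpG, 403 (5.41%) had none within 2 kb in the mutant list, against 59 (0.792%) in the water list. The 403 lay on 18 chromosomes with at most 31 on any one, and H3K27ac was present at 134 of the 403. Of the 403, 366 (90.8%) had H3K4me3 in the water list. Within 5 kb the counts were 311 and 47, but with the wider 50% of each list they were 617 and 538. The 4 genes with 1 start and the most CpG among the 366, taken after the values were seen, were Epha8 with 56 CpG, Cdc34 and Grik3 with 50 each, and Smarcc2 with 48. Epha8 is an ephrin receptor and Grik3 a glutamate receptor subunit; both had neither mark here and H3K4me3 alone in water, with the nearest mutant H3K4me3 peak 8545 and 9771 bp from the start. Cdc34, a ubiquitin-conjugating enzyme, had H3K27ac alone, and Smarcc2, a subunit of the BAF remodelling complex, neither; both genes had both marks in water.

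The GC box and the TATA box at start sites went with the CpG content of the states, in opposite directions. Among starts of similar CpG number some motifs still differed between states. Each motif was searched on both strands of the 300 bases, and a match describes letters, not binding. The GC box GGGCGG was in 61.0% of starts with both marks, 59.0% with H3K4me3 alone, 23.9% with H3K27ac alone and 14.4% with neither, against 47.0% of all. The TATA box TATAAA ran the other way, at 7.69%, 7.94%, 17.9% and 25.8% against 12.7% of all. The ETS core CCGGAA, which like the GC box holds a CpG, was in 26.4% with both marks and 21.5% with H3K4me3 alone, against 19.1% of all. The CCAAT box differed little, at 37.2%, 36.8%, 39.0% and 41.0%. Among starts with 10 to 19 CpG the ETS core was at 28.1%, 23.8%, 23.3% and 13.6% in the same order of states. Among those with 0 to 4 CpG the TATA box was at 19.3%, 21.7%, 24.3% and 31.7%.

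Single stretches show the extremes. The longest unbroken stretch under both marks was 31659 bp at chr12:51843072-51874730, with Heatr5a 1140 bp away. The next, 26536 bp on chromosome 5, covered the starts of Ptpn11, a phosphatase of growth factor signalling, and Rpl6, a ribosomal protein. Others over 24 kb lay at Scarb1, Fadd and Sppl3. The widest H3K27ac peak with no H3K4me3 was 21659 bp inside Rnf216, 3008 bp from the nearest H3K4me3 peak. The widest H3K4me3 peak with no H3K27ac was 26987 bp over the start of Tspan15, and another of 26633 bp covered the starts of Zbtb5 and Polr1e, a subunit of RNA polymerase I. In the water lists H3K27ac covered 8.93% of the Tspan15 peak but 96.7% of the Zbtb5 and Polr1e peak. The 44186 stretches under both marks had a median length of 1456 bp, and 720 were over 10 kb.

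At the scale of 1 Mb the marks went together. Over 2451 bins the covered lengths had a Pearson correlation of 0.940 and a Spearman correlation of 0.946. These are descriptions, since bins share gene density and the same libraries. Of the marked bases, 6.64% had both marks in bins without coding genes and 36.7% in bins with 30 or more. The bin with the most bases under both marks, chr4:129000001-130000000, held 421.6 kb of them and 31 coding genes, Hdac1 being in it. H3K27ac alone was longest at chr2:91000001-92000000 with 263.3 kb, and H3K4me3 alone at chr11:69000001-70000000 with 320.0 kb.

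**Figure D5:**
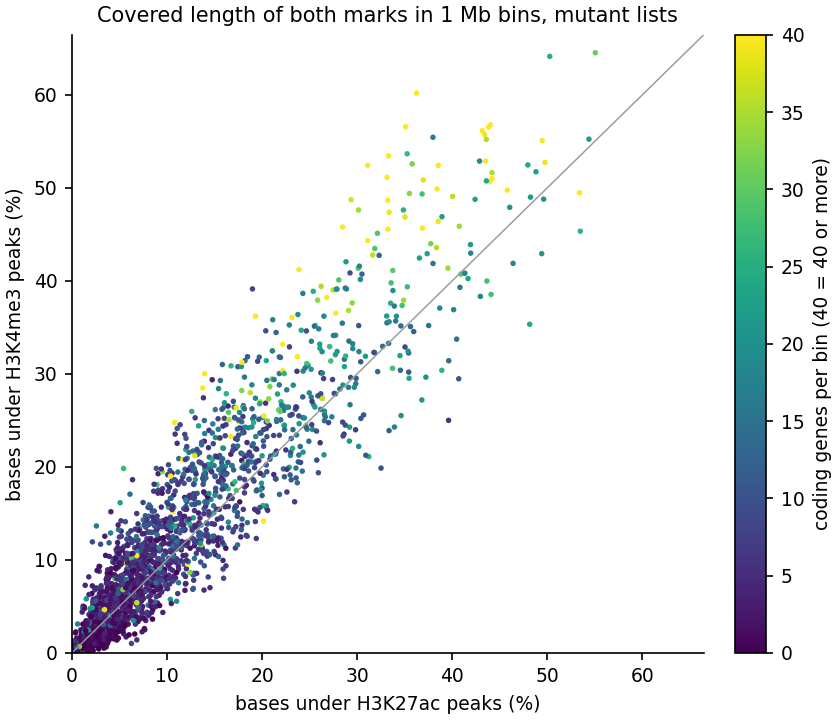
Bases under H3K4me3 peaks (%) against bases under H3K27ac peaks (%) in 2451 bins of 1 Mb in the mutant lists, coloured by the number of coding genes in the bin; the line marks equal shares. Both shares rise together (Spearman 0.946), and 95 of the 113 bins with 30 or more genes lie above the line.

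Clustered small RNAs gave a last example of unlike states, chosen after the values were seen. The miR-290 and miR-302 clusters are known from early embryos and pluripotent cells, and several of their 3′ arms, printed here, share much of a seed. Other 3′ arms of the miR-290 cluster differ at bases 2 to 8, with AGUGCCC in miR-290b, AGAGCCC in miR-292b and GUGCCGC in miR-293. The mature sequences are from RefSeq, 5′ to 3′, with the seed (bases 2 to 8) in capitals.
mmu-miR-290a-3p: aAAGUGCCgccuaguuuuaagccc
mmu-miR-291b-3p: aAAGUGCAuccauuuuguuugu
mmu-miR-294-3p: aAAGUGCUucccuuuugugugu
mmu-miR-295-3p: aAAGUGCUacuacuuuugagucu
mmu-miR-302b-3p: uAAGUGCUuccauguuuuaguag
mmu-miR-302d-3p: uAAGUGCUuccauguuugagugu
mmu-miR-302c-3p: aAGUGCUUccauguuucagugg

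The seed AAGUGCU is common to miR-294, miR-295, miR-302b and miR-302d, whereas the listed miR-302c starts 1 base later, so that its bases 2 to 8 are shifted. On chromosome 7, the hairpins of the miR-290 cluster lay under an H3K4me3 peak. Mir290a and Mir290b counted as having both marks, with H3K27ac 1896 and 1908 bp away, while Mir291b, Mir292, Mir292b, Mir293, Mir294 and Mir295 had H3K4me3 alone, with H3K27ac 2161 to 2752 bp away. These 8 hairpins had both marks in the water lists. The 5 hairpins of the miR-302 cluster on chromosome 3, Mir302a to Mir302d and Mir367, lay under H3K27ac alone, with the nearest H3K4me3 peak 5625 to 6131 bp away, and had neither mark in the water lists. Over 919 autosomal hairpins, 218 (23.7%) had both marks and 377 (41.0%) neither.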

How the data were processed

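H3K27ac and H3K4me3 were profiled by ultra-low-input native ChIP-seq in late 2-cell embryos. Per the submitters' processing notes, CASAVA, Trimmomatic, Bowtie2, SAMtools, Picard, MACS2 and deepTools were used with mm10 (GRCm38); versions, calling thresholds and whether replicates were pooled are not given in the sources used here. The authors deposited 1 list of peak positions per mark and condition, with no score, so depth is unknown and peaks were not ranked by strength. Both libraries of a group share a list, so replicates could not be compared.

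Peaks of chromosomes 1 to 19 were taken from the lists as BED intervals, with positions printed 1-based; 7770 H3K27ac and 2514 H3K4me3 peaks elsewhere were left out of these comparisons, and those on the X chromosome are described separately. Overlap needed 1 bp. Genes and start sites came from RefSeq tables of GRCm38.p6: 16457 coding genes were judged within 2 kb of a start site and 4103 without one within 2 kb of either gene end. A further 105 coding genes placed before position 3000000, ahead of every peak, were left out. Interval code was checked on simulated data (Python 3.11.15, numpy 2.4.6, pandas 2.3.3). Water lists were handled in the same way, for comparison.

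The genes named are 37 fixed genes, list members in a minority state (up to 4 a list), and the longest stretches and fullest bins. Exceptions are marked as chosen after values were seen. Zscan4f, Hdac7, Wdr5, Pax3 and Isl1, not so marked, were also named with the values known. The comparison, the members and the 13 lists were chosen with earlier results of these data known. Alternatives were minimum overlap, window, list width and common calling limits, and, added after seeing the data, genes with a start site alone.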

Additional observations from a re-analysis of the deposited data

How the results depend on the processing

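The share of H3K27ac peaks overlapping H3K4me3 was 25.5% when at least 50% of the peak had to be covered, 7.92% with a reciprocal overlap of 50%, 39.9% with a partner within 1 kb, 44.6% with the wider 50% of each list and 35.4% with common limits (peaks under 750 bp apart merged, peaks under 200 bp dropped). The share of H3K4me3 peaks overlapping H3K27ac was 24.2%, 10.9%, 46.2% and 50.7% under the first 4 of these, and 39.2% with common limits, within the interval of the reported value. Bases under both marks came to 90.0 Mb with the wider 50% of each list and 102.2 Mb with common limits.

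The 4 counts of coding genes stayed within 1.5 times of the reported count under all 6 alternatives: both marks at 6848 to 11906 genes, H3K27ac alone at 893 to 1385, H3K4me3 alone at 3963 to 6559 and neither at 3306 to 5916; the 6848 is out of the 16457 genes with a start site. Of 78 counts of list genes with both marks, 67 stayed within 1.5 times and 11 did not. Some of the 11 came from counting only genes with a start site, which shortens the list itself. The 2-cell list, for example, went from 24 of 29 (82.8%) to 14 of 19 (73.7%). Also among the 11, developmental transcription factors had 12 of 48 within 1 kb and 9 with the wider 50% of each list. Cumulus and granulosa genes had 2 of 8 under both.

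No paired analysis was possible because 1 peak list stands for both libraries of a group. For the same reason leaving out a replicate was not run, and depth, which limits how many weak peaks are called, is unknown for every list.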

Other observations

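The X chromosome lay outside the comparison. The mutant lists held 7722 H3K27ac and 2482 H3K4me3 peaks there, and the water lists 4029 and 3561. Of the mutant H3K27ac peaks on the X, 14.3% (13.6% to 15.1%) overlapped H3K4me3, against 28.5% in the water lists. Of the H3K4me3 peaks on the X, 33.6% overlapped H3K27ac in the mutant lists and 32.0% in the water lists. Both marks lay on 1.65 Mb in the mutant lists and 4.71 Mb in the water lists. The sex of the embryos is not given in the labels, and its part in these values was not tested.

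Histone genes, a family chosen after the values were seen, had another state in the water lists at 33 of 67 genes (49.3%), against 7831 of all 20560 coding genes (38.1%), with no test of the difference. Of these 67 genes, with H1f, H2ac, H2bc, H3c or H4c symbols, 31 had both marks, 24 H3K4me3 alone, 7 H3K27ac alone and 5 neither, against 43, 21, 0 and 3 in the water lists. The 7 with H3K27ac alone were on chromosome 13, among them the neighbours from H4c12 to H2bc15. Near-identical copies can share reads, so single genes are uncertain.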
